A study of Mus musculus with 19 samples.

Results

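Small nucleolar RNAs and Cajal body RNAs are short nuclear guides, and 59 of the 18820 genes measured here by a probe set of 1 gene symbol belonged to them. Members were set by symbol: 30 box C/D RNAs (symbols starting with Snord), 26 H/ACA RNAs (Snora) and 3 Cajal body RNAs (Scarna13, Scarna17 and Scarna8). This set was chosen with earlier results of these data known. The RNAs were read in adipocytes grown from 3T3-L1, an established line of mouse fibroblasts that stores fat once differentiated. All cells were kept without serum from day 7 and treated for 48 h from day 8. Control cells (n = 4) received ethanol and 2% BSA, the solvent and carrier that the treated cells also received. The other groups were given a single fatty acid at 250 µM. Of those with 16 carbons, palmitic acid (PA, n = 4) is saturated and palmitoleic acid (PMA, n = 4, titled PMO in the sample names) has 1 double bond. Of those with 18 carbons, stearic acid (SA, n = 4) is saturated and oleic acid (OA, n = 3) has 1 double bond. The arrays of a group are labelled as biological replicates, and nothing used here says more about separate cultures or about processing days.

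Box C/D RNAs carry fibrillarin to the ribose of chosen nucleotides in ribosomal RNA, where it adds a methyl group, and H/ACA RNAs carry dyskerin, which turns chosen uridines into pseudouridine. Cajal body RNAs have the same box C/D or H/ACA build but stay in Cajal bodies and guide the same marks on the small nuclear RNAs of the spliceosome. Most of these RNAs have no promoter of their own: they are cut from introns of a host gene, often a gene of a ribosomal protein or a non-coding RNA whose spliced product is quickly destroyed. A few serve in cutting the ribosomal precursor and not in marking it, among them U8 (Snord118), U22 (Snord22) and U17 (Snora73a and Snora73b).

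Values are log2 expression after RMA, a method that combines the probes of a probe set and brings the arrays to a common distribution, so that a difference of 1 is a 2-fold change. RefSeq gives the members lengths of 53 to 275 bases, with medians of 69.5 for box C/D, 119 for H/ACA and 118 for Cajal body RNAs. The RNA was extracted on silica columns, which hold short RNAs poorly, and probes inside an intron can also read the unspliced host transcript. Whether the values stand for the mature small RNAs was not tested. Mean levels ran from 2.67 to 11.8, and 14 members lay among the dimmest 1 in 3 of all genes. A level is compared only with the same probe set on other arrays, and in bulk RNA fewer cells that make an RNA and less RNA per cell cannot be told apart.

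Few of the small RNAs passed the test. With limma and adjustment over all 18820 genes, 1 of the 59 passed with OA against control (Scarna13, higher; 0.861% of all genes passed) and none passed with PA (0% of all genes), PMA (0.266%) or SA (0.165%). Between acids, 1 passed in PA against PMA (Snora73a, higher with PA; 0.962% of all genes) and none in SA against OA (0.0319%), PA against SA (0.143%) or PMA against OA (0.0531%). A test for any difference among the 5 groups (the moderated F test) passed for Scarna13, Snora62 and Snord53, 1 of each class, while 1.47% of all genes passed it. Leaving out 1 array at a time ended this call in 14 of 19 cases for Scarna13, in 14 for Snord53 and in 7 for Snora62. With every probe set kept apart it ended for Scarna13 (adjusted p = 0.0531) and Snord53 (0.0513), as it did with a trended robust spread (0.105 and 0.107), and after cyclic loess for Scarna13 (0.0585). No member passed the test of whether the double bond acted differently at 16 and at 18 carbons (0.00531% of all genes did).

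The members that came close were counted by direction at a looser threshold. At an unadjusted p under 0.05, 13 members were higher and 3 lower with PA (10.9% and 4.55% of all genes), and 5 higher and 3 lower with PMA (14.5% and 1.49%). With SA 2 were higher and 12 lower (5.64% and 2.89%), and with OA 2 higher and 16 lower (7.99% and 3.65%). In PA against SA 25 were higher with PA and 1 lower (8.47% and 7.35%), in PA against PMA 11 and 2 (3.13% and 14.5%), in PMA against OA 12 and 0 (7.5% and 1.11%) and in SA against OA 0 and 1 (1.23% and 1.16%). For the F test 26 members reached that p (18.4%). All arrays of the acid lay above all controls for 7 members with PA and below them for 0 (3.9% and 1.65% of all genes), for 2 and 1 with PMA (9.29% and 1.3%), 1 and 5 with SA (4.88% and 2.5%) and 1 and 5 with OA (9.72% and 4.63%). These RNAs varied together within groups, as described further on, so the counts do not come from independent members. The 4 comparisons with control share the same 4 control arrays.

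Box C/D RNAs had a median log2 difference from control of 0.13 with PA, 0.03 with PMA, -0.15 with SA and -0.24 with OA. H/ACA RNAs had 0.02, -0.05, -0.14 and -0.16 in the same order, against 0.03, 0.06, 0.02 and 0.02 for all genes. For the 3 Cajal body RNAs the medians were 0.21, 0.04, 0.03 and 0.06. They were 0.41, 0.43, 0.34 and 0.54 with the dimmest 1 in 3 genes left out, which drops Scarna8, and with PMA, SA and OA they were -0.023, -0.028 and -0.0037 without control replicate 2. Of the 59 RNAs, 37 were higher and 22 lower than control with PA, 29 and 30 with PMA, 15 and 44 with SA, and 15 and 44 with OA. Of all genes, 61.7% were higher with PA, 78.5% with PMA, 58.1% with SA and 56.7% with OA. The PA split of the 59 was thus near that of all genes. After cyclic loess between arrays the PMA split of the 59 became 20 higher and 39 lower, while the median of all genes with PMA went from 0.06 to 0.01. The medians against control also leaned on single control arrays: for box C/D with OA the median was -0.34 without control replicate 2 and -0.11 without control replicate 4, and with PMA it was -0.07 and 0.12.

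**Figure D1:**
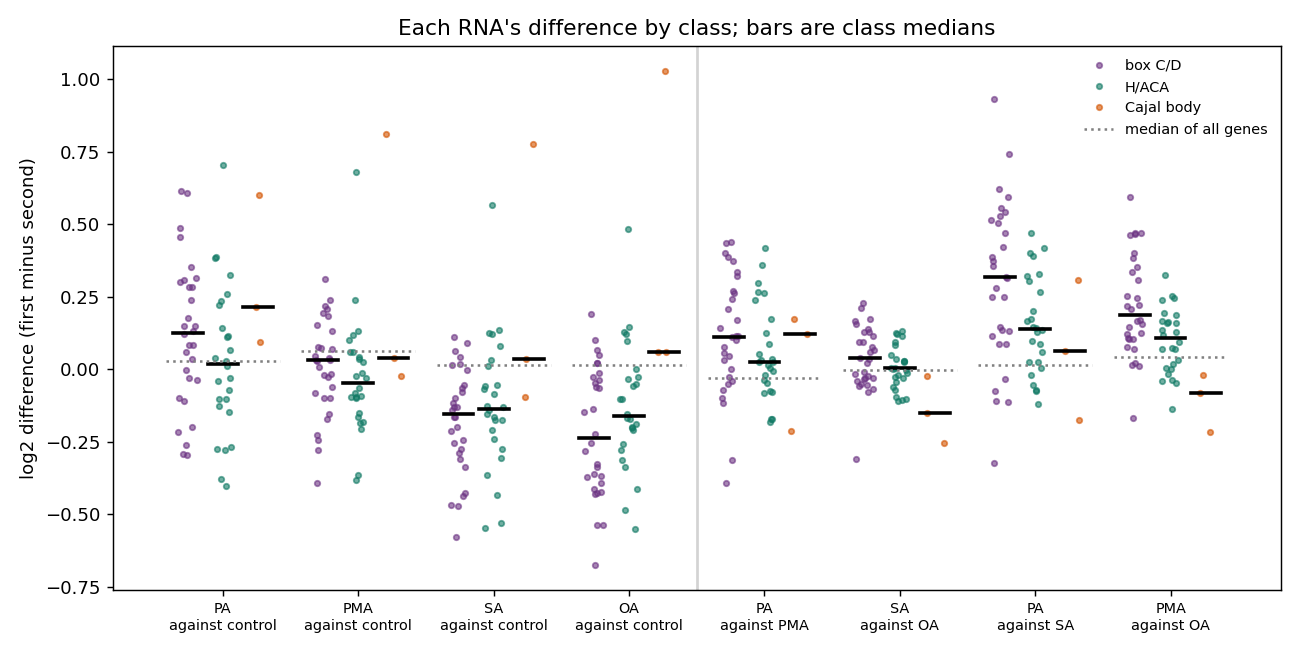
Log2 difference of each small RNA (points) in 8 comparisons, the 4 acids against control on the left and acid against acid on the right, by class, with class medians as black bars and the median of all genes dotted. The box C/D median runs from 0.13 with PA to -0.24 with OA against control and reaches 0.32 in PA against SA, and the highest point of each of PMA, SA and OA against control is Scarna13.

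Scarna13, also called U93, is a Cajal body RNA of the H/ACA type that guides pseudouridine formation on spliceosomal RNA. Its level was 7.10, 7.12, 7.27 and 7.06 on the 4 control arrays, 8.29, 7.42, 7.35 and 7.90 with PA, and 7.85, 8.33, 7.78 and 7.85 with PMA. It was 7.93, 7.30, 8.08 and 8.35 with SA and 8.49, 8.01 and 8.00 with OA. Every array of an acid lay above every control array, and the nearest were SA replicate 2 and control replicate 3. The log2 difference from control was 0.60 ± 0.20 with PA (95% interval 0.19 to 1.01, adjusted p = 0.228), 0.81 ± 0.20 with PMA (0.41 to 1.22, adjusted p = 0.0681), 0.78 ± 0.20 with SA (0.37 to 1.18, adjusted p = 0.127) and 1.03 ± 0.21 with OA (0.59 to 1.47, adjusted p = 0.0209).

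The controls stood close together (SD 0.09), and the acid groups less so, with the widest spread in PA and SA (SD 0.44 and 0.45). PA replicates 2 and 3 and SA replicate 2 lay nearer to the controls than the other arrays of their groups. The OA difference was 0.87 to 1.11 when single arrays were left out, with adjusted p from 0.0107 to 0.125, highest without OA replicate 1, and the call was lost in 5 of the 19 cases. Between acids Scarna13 passed in no comparison: the difference was -0.21 in PA against PMA (95% interval -0.62 to 0.19), -0.25 in SA against OA (-0.69 to 0.18), -0.18 in PA against SA (-0.58 to 0.23) and -0.22 in PMA against OA (-0.65 to 0.22). These intervals leave room for differences of about the size of the PA difference from control.

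Scarna17, a Cajal body RNA of the box C/D type, read 9.03, 8.74, 9.03 and 8.89 on the control arrays, 9.16, 9.28, 9.16 and 8.95 with PA, 9.12, 8.94, 8.81 and 8.97 with PMA, 8.74, 8.97, 8.71 and 8.89 with SA and 8.77, 9.13 and 9.04 with OA. PA stood highest on average, with 3 of its 4 arrays higher than every control and the fourth among them. The difference from control was 0.21 ± 0.09 with PA (adjusted p = 0.278), and PA lay 0.31 ± 0.09 above SA (adjusted p = 0.157). Scarna8, of the H/ACA type like Scarna13, read 3.98, 3.74, 3.92 and 4.07 on the control arrays, 3.99, 3.95, 3.96 and 4.21 with PA, 3.90, 4.10, 3.65 and 3.97 with PMA, 3.76, 4.08, 4.08 and 3.94 with SA and 4.01, 3.98 and 3.98 with OA. Its groups overlapped throughout, its differences from control ran from -0.02 to 0.10, and the 95% interval with OA was -0.14 to 0.26. The group means of the 3 Cajal body RNAs fell in 3 different orders. The F test did not pass for Scarna17 (adjusted p = 0.248) or Scarna8 (0.808), so the orders of these 2 are uncertain.

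**Figure D2:**
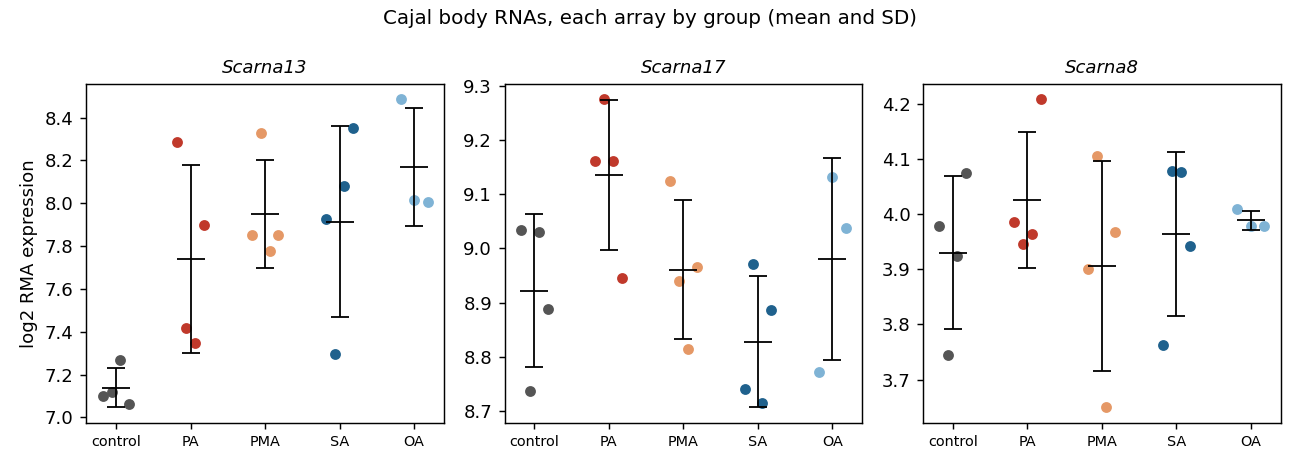
Log2 RMA expression of the 3 Cajal body RNAs on each of the 19 arrays (points), by group, with the group mean and SD (black). For Scarna13 the 4 control arrays, 7.06 to 7.27, lie below all 15 arrays of the acids, 7.30 to 8.49, while the groups overlap for Scarna17 and Scarna8.

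Scarna13 lies in the non-coding gene Snhg10, Snora73a and Snora73b lie in Snhg3, and Snora16a, Snora44 and Snora61 lie in Snhg12, by their spans in the RefSeq annotation of GRCm38.p6. None of these 3 hosts had a probe set of its own symbol alone, so the host promoters are shown in place of host levels. Each is the RefSeq window from 250 bases before to 50 bases after the annotated start, 5′ to 3′ on the gene's strand: chr12:105032230-105032529 (minus strand), chr4:132353637-132353936 (minus strand) and chr4:132308428-132308727 (plus strand). Many host genes of small nucleolar RNAs are known to start transcription in a run of pyrimidines, so capitals mark the longest unbroken run of C and T that touches the 20 bases on either side of the start.
Snhg10: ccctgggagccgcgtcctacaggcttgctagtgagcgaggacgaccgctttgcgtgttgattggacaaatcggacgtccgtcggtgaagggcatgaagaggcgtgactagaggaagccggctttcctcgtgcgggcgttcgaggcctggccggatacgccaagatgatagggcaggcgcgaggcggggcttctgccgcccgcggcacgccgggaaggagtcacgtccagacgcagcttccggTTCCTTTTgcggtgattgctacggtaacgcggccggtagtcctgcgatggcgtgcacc
Snhg3: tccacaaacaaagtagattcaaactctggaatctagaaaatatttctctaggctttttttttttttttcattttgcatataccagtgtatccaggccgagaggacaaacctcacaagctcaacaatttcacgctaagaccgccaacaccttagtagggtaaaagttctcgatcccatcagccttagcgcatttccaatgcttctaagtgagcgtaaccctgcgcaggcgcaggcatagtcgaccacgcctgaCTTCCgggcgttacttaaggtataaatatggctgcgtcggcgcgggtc
Snhg12: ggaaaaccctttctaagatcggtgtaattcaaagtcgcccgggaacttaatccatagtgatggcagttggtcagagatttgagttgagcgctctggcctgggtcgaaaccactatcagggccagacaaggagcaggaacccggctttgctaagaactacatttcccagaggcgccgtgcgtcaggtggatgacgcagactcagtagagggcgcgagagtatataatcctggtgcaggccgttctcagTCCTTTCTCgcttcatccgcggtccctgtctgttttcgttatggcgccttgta
The run was 8 bases in Snhg10, ending right before the start, 5 bases in Snhg3 and 9 bases across the start in Snhg12. Of 32851 RefSeq promoters of this length, 21.0% held a run of 8 or more at that place, 63.5% a run of 5 or more and 14.7% a run of 9 or more. The run is a description of the letters only, and neither the start in these cells nor its use was measured.

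Among box C/D RNAs, Snord53 gave the widest differences in PA against SA and in PMA against OA. It lies in Wdr43, a gene for a factor of ribosome assembly. Its level was 8.09, 7.45, 8.33 and 8.73 on the control arrays, 8.51, 8.69, 8.74 and 8.06 with PA, 8.21, 7.99, 7.85 and 8.21 with PMA, 7.02, 7.69, 7.83 and 7.74 with SA and 7.51, 7.18 and 7.73 with OA. The PA mean stood highest and the SA and OA means lowest, with no overlap between the PA and SA arrays, and the controls spread over most of the range (SD 0.54). Its F test passed (adjusted p = 0.0429), but no single comparison did: 0.93 ± 0.21 in PA against SA (adjusted p = 0.0874), 0.59 ± 0.23 in PMA against OA (0.497), -0.68 ± 0.23 in OA against control (0.2) and -0.58 ± 0.21 in SA against control (0.366). The F call was lost in 14 of 19 cases when single arrays were left out, with adjusted p from 0.00965 without control replicate 2 to 0.0951 without OA replicate 2.

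Snord57 lies in Nop56, the gene of a core protein of the box C/D particle itself. Its level was 10.18, 9.97, 10.13 and 10.36 on the control arrays, 10.20, 10.08, 10.21 and 9.71 with PA, 10.05, 9.89, 9.67 and 9.91 with PMA, 9.58, 9.76, 9.71 and 9.72 with SA and 9.69, 9.59 and 9.92 with OA. All SA and OA arrays lay below all control arrays, and the PMA mean lay between, with 1 of its arrays inside the control range. Differences from control were -0.47 ± 0.10 with SA (adjusted p = 0.0799), -0.43 ± 0.11 with OA (0.0804), -0.28 ± 0.10 with PMA (0.204) and -0.11 ± 0.10 with PA (0.608). After cyclic loess between arrays it passed with SA and with OA. Snord22 (U22), needed for 18S ribosomal RNA and cut from Snhg1, had all SA and OA arrays, 3 of 4 PA arrays and 2 of 4 PMA arrays below the lowest control. Its differences were -0.43 ± 0.12 with SA (adjusted p = 0.199), -0.37 ± 0.13 with OA (0.237), -0.30 ± 0.12 with PA (0.275) and -0.24 ± 0.12 with PMA (0.33).

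Snord33 and Snord35a lie in different introns of Rpl13a, whose box C/D RNAs are known to be needed for the death of cultured cells in excess palmitate. Snord33 read 8.53, 8.02, 9.15 and 9.18 on the control arrays, 9.36, 9.11, 9.50 and 9.37 with PA, 8.93, 8.89, 8.82 and 9.20 with PMA, 8.07, 8.64, 8.82 and 8.85 with SA and 8.40, 8.32 and 8.77 with OA. Its PA arrays did not overlap those of SA. They were all above the PMA mean but overlapped the PMA arrays, of which replicate 4, at 9.20, lay above PA replicate 2, at 9.11. Of the 4 controls, 2 reached 9.15 and 9.18, inside the range of PA. The difference was 0.61 ± 0.20 in PA against control (adjusted p = 0.228), 0.38 without control replicate 2 and 0.77 without control replicate 4, and 0.74 ± 0.20 in PA against SA (0.135). Snord35a read 8.86, 8.01, 8.92 and 9.26 on the control arrays, 9.02, 8.90, 8.65 and 8.62 with PA, 8.48, 8.61, 8.37 and 8.68 with PMA, 8.05, 8.53, 8.24 and 8.35 with SA and 8.21, 8.12 and 8.35 with OA. With PA it stood at the control mean (0.04 ± 0.17, 95% interval -0.32 to 0.39), with OA -0.54 ± 0.18 from it (adjusted p = 0.207), and in PA against SA it differed by 0.51 ± 0.17 (0.197). The 2 RNAs of this host thus had PA differences from control of 0.61 and 0.04, and the gap between them was not tested.

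With PA the largest box C/D differences from control were those of Snord85 and Snord33. Snord85 read 3.83, 3.93, 4.36 and 4.09 on the control arrays, 4.95, 4.36, 4.59 and 4.75 with PA, 4.33, 4.34, 4.09 and 4.28 with PMA, 3.91, 4.39, 3.91 and 4.38 with SA and 4.24, 4.03 and 4.20 with OA, with PA replicate 2 level with the highest control and the other PA arrays above it. Its difference was 0.61 ± 0.13 (adjusted p = 0.159), against 0.21 with PMA, 0.09 with SA and 0.10 with OA. Snord104 had 4 PA arrays at 10.50, 10.47, 10.41 and 10.49, above every array of the other groups, of which the highest were at 10.22, and differed by 0.49 ± 0.12 from control (0.182) and 0.47 ± 0.12 from SA (0.133). Snord35b was 0.46 ± 0.14 higher with PA than in control (0.225) and 0.62 ± 0.14 higher than with SA (0.088). Snord55 followed with 0.24 ± 0.08 (0.228) and 0.32 ± 0.08 (0.129), and its PA arrays overlapped neither group. None of these passed.

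Some box C/D RNAs had other patterns. Snord42b, in Rpl23a, stood lower with PA than with SA, at a difference of -0.32 ± 0.13 (adjusted p = 0.262), the only member with an unadjusted p under 0.05 in that direction. Snord37, in Eef2, was 0.31 ± 0.11 higher with PMA than in control (0.195), on arrays at 3.99, 3.83, 3.43 and 3.49 against 3.24, 3.28, 3.43 and 3.56. Snord118 (U8), needed for the 5.8S and 28S ribosomal RNAs, had means below control with every acid, from -0.29 with PA to -0.44 with SA (adjusted p = 0.347), but control replicate 2, at 5.24, lay among the treated arrays while the other controls read 6.00, 5.85 and 6.08. Snord49a, by contrast, followed the class and had one of the largest OA differences, -0.54 ± 0.21 (0.295), with OA replicate 2 at 6.27 and the other OA arrays at 6.90 and 7.15. Without that array the difference was -0.29.

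Among H/ACA RNAs, Snora73a (U17) passed in PA against PMA. Its level was 9.56, 9.18, 9.45 and 9.37 on the control arrays, 9.93, 9.50, 9.85 and 9.83 with PA, 9.34, 9.42, 9.25 and 9.43 with PMA, 9.24, 9.62, 9.57 and 9.46 with SA and 9.39, 9.37 and 9.31 with OA. All PA arrays lay above all PMA arrays, and PA replicate 2 stood lowest in its group, inside the range of the controls and of SA. The difference was 0.42 ± 0.09 (95% interval 0.23 to 0.61, adjusted p = 0.0308). Leaving out single arrays gave 0.37 to 0.51, with adjusted p from 0.00348 to 0.11 and the call lost in 4 of 19 cases, and without PMA replicates 1 and 4 the adjusted p was 0.195. With only the PA and PMA arrays in the fit it was 0.159. PA differed from control by 0.39 ± 0.09 (adjusted p = 0.164) and from SA by 0.30 ± 0.09 (0.169). Snora73b, its near-identical neighbour in Snhg3, gave 0.36 ± 0.12 in PA against PMA (0.12) and 0.26 ± 0.12 in PA against control (0.297). The 2 sequences are alike enough that their probes may share signal.

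Snora62, in Rpsa, had the smallest F test p of the 59 (adjusted p = 0.0298). Its level was 5.55, 5.32, 5.64 and 5.68 on the control arrays, 5.93, 5.89, 5.86 and 5.82 with PA, 5.77, 5.47, 5.64 and 5.43 with PMA, 5.35, 5.50, 5.62 and 5.46 with SA and 5.48, 5.36 and 5.51 with OA. The 4 PA arrays lay close together (SD 0.0489) and above every other array. The differences were 0.32 ± 0.08 in PA against control (adjusted p = 0.174), 0.30 ± 0.08 in PA against PMA (0.0651) and 0.39 ± 0.08 in PA against SA (0.0506). With PMA, SA and OA it stood 0.03, -0.07 and -0.10 from control. Leaving out single arrays took the F test's adjusted p to between 0.0167 and 0.0697, above the threshold in 7 of 19 cases.

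Snora44 and Snora61, both of Snhg12, had their highest mean with PA and their lowest with OA. Snora44 read 10.83, 10.70, 10.83 and 10.81 on the control arrays, 10.98, 10.97, 10.92 and 10.87 with PA, 10.85, 10.70, 10.63 and 10.62 with PMA, 10.52, 10.76, 10.60 and 10.80 with SA and 10.74, 10.34 and 10.53 with OA. Its PA arrays lay above all control, PMA and SA arrays, by 0.24 ± 0.08 against PMA (adjusted p = 0.119) and 0.27 ± 0.08 against SA (0.154), and OA was -0.26 ± 0.08 from control (0.179). Snora61 gave 0.27 ± 0.13, 0.47 ± 0.13 and -0.21 ± 0.14 in the same comparisons (adjusted p = 0.275, 0.136 and 0.622). The third RNA of this host, Snora16a, differed from control by 0.24 with PA and 0.10 with OA.

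Snora70 and Snora69, from the ribosomal protein genes Rpl10 and Rpl39, had means on opposite sides of control with all 4 acids. Snora70 read 5.37, 5.69, 6.47 and 5.84 on the control arrays, 7.01, 6.25, 6.44 and 6.49 with PA, 6.38, 6.63, 6.35 and 6.73 with PMA, 6.25, 6.52, 6.54 and 6.33 with SA and 6.31, 6.49 and 6.19 with OA, and its differences were 0.70 ± 0.17 with PA, 0.68 ± 0.17 with PMA, 0.57 ± 0.17 with SA and 0.48 ± 0.18 with OA (adjusted p = 0.171, 0.0798, 0.24 and 0.271). Control replicate 3, at 6.47, lay among the treated arrays, and without it PMA reached 0.89 with adjusted p = 0.0131 and SA 0.78 with adjusted p = 0.0462. That was the only 1 of 19 cases with an array left out in which either passed. Without control replicate 1 the differences were 0.52 and 0.41. Over the 19 cases the adjusted p rose to 0.229 with PMA and 0.568 with SA. Snora69 read 6.01, 5.62, 5.88 and 6.16 on the control arrays, 5.96, 5.46, 5.30 and 5.44 with PA, 5.42, 5.52, 5.60 and 5.59 with PMA, 5.23, 5.55, 5.57 and 5.11 with SA and 5.11, 5.32 and 5.67 with OA. Its PMA and SA arrays all lay below the controls, at -0.38 ± 0.14 and -0.55 ± 0.14 (adjusted p = 0.192 and 0.129), while PA replicate 1 and OA replicate 3 reached into the control range and the differences were -0.38 ± 0.14 and -0.55 ± 0.15 (0.241 and 0.0901).

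**Figure D3:**
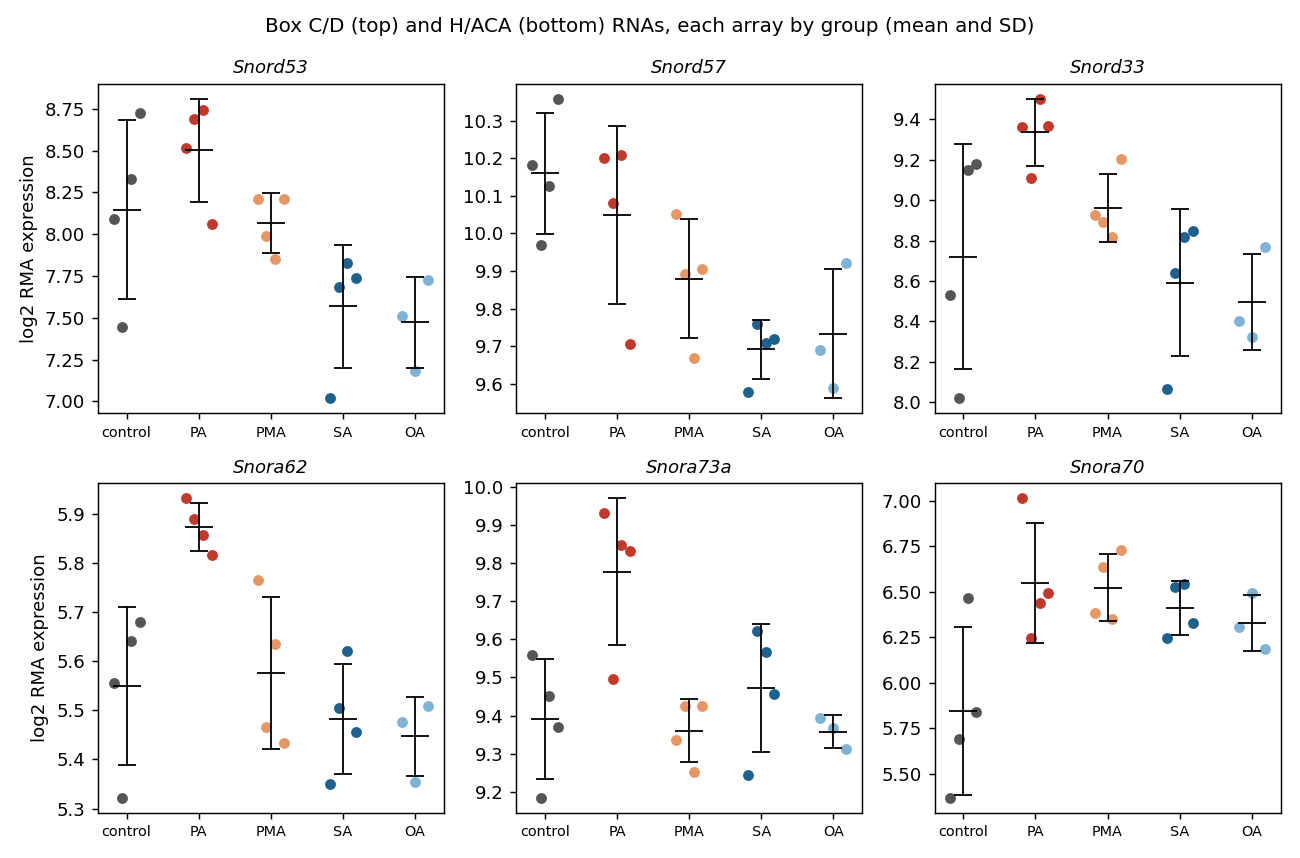
Log2 RMA expression of 3 box C/D RNAs (top) and 3 H/ACA RNAs (bottom) on each of the 19 arrays (points), by group, with the group mean and SD (black); each panel has its own vertical range. The PA mean stands highest and the SA and OA means lowest for Snord53, Snord33 and Snora62, the SA and OA arrays of Snord57 lie below its controls, and the acids lie above 3 of 4 controls for Snora70.

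Other H/ACA RNAs had small or uncertain differences. Snora52, in Rplp2, lay 0.10 to 0.15 above control with the 4 acids, with overlapping groups throughout and a 95% interval of -0.02 to 0.31 with OA. Snora36b and Snora19 lay among the dimmest members, at means of 2.79 and 2.67. Snora36b differed by -0.15 ± 0.06 with OA (adjusted p = 0.244), and Snora19 by 0.12 ± 0.08 (0.62). Snora34, in Kansl2, had large differences on large errors, from -0.37 ± 0.23 with PMA to -0.53 ± 0.23 with SA (adjusted p = 0.438 and 0.51).

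Acids that differ by 1 double bond or by chain length were compared directly in 4 pairs, all at 250 µM and 48 h. With every array in use, chain length among the saturated acids gave the widest gap of the 4 pairs for box C/D and H/ACA RNAs. For Cajal body RNAs it gave the smallest. In PA against SA the median was 0.32 for box C/D, 0.14 for H/ACA and 0.06 for Cajal body RNAs, against 0.02 for all genes. There 48 members were higher with PA and 11 lower, while 56.2% of all genes were higher. The groups did not overlap for 14 higher and 0 lower members (2.73% and 2.57% of all genes). Yet none passed. The smallest adjusted p was 0.0506, for Snora62, followed by 0.0874 for Snord53. Without PA replicates 2 and 4 the box C/D median was 0.50. With 1 array left out at a time it ran from 0.27 to 0.37. The H/ACA median then ran from 0.04 (without PA replicate 1) to 0.19 (without SA replicate 3). The lower end is below the H/ACA median of 0.11 in PMA against OA. The Cajal body median ran from -0.006 to 0.10. The rankings for H/ACA and Cajal body RNAs thus leaned on single arrays.

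Chain length among the unsaturated acids, PMA against OA, gave medians of 0.19, 0.11 and -0.08 for the 3 classes, against 0.04 for all genes. The box C/D RNAs were higher with PMA in 29 of 30 cases, the exception being Snord95, at -0.17. Of all 59, 50 were higher and 9 lower, which became 43 and 16 after cyclic loess. Of all genes 70.8% were higher with PMA before loess, and loess took the median of all genes from 0.04 to 0.0002. Groups did not overlap for 10 higher and 0 lower members (6.98% and 1.92% of all genes). The double bond at 16 carbons, PA against PMA, gave 0.11, 0.02 and 0.12, against -0.03 for all genes. There 40 members were higher with PA, while 38.8% of all genes were higher. Groups did not overlap for 10 higher and 0 lower members (0.919% and 7.09% of all genes). The medians of this pair leaned on single arrays: leaving out 1 at a time gave 0.04 (without PA replicate 1) to 0.17 (without PA replicate 2) for box C/D and -0.02 (without PA replicate 1) to 0.07 (without PA replicate 4) for H/ACA RNAs. The Cajal body median was -0.019 with the dimmest 1 in 3 genes, Scarna8 among them, left out. The double bond at 18 carbons, SA against OA, gave 0.04, 0.00 and -0.15. There 31 members were higher with SA and 28 lower, while 47.7% of all genes were higher. In each direction 1 member had groups without overlap (2.13% and 2.5% of all genes). Single differences there ran from -0.31 for Snord61 (95% interval -0.58 to -0.04) to 0.23 for Snord49a (-0.22 to 0.67), and both intervals reach well beyond these values.

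Small RNAs spread more within groups than other genes. The within-group SD, pooled over the 5 groups, had a median of 0.216 for box C/D, 0.187 for H/ACA and 0.141 for Cajal body RNAs, against 0.0984 for all genes. For 58 of 59 members it was above the median of all genes, and for 52 above its upper quartile, 0.124. Snora34 (0.397), Snord73b (0.378) and Snord53 (0.359) had the widest spread, and Snora36b (0.0597), Snora19 (0.108) and Snord16a (0.110) the narrowest. As a result a member's standard error against control with 4 arrays each was 0.124 at the median, against 0.0686 for all genes.

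The members also moved together from array to array. After group means were taken out, the median correlation between 2 members over the 19 arrays was 0.35 (1711 pairs), 0.42 within box C/D, 0.32 within H/ACA and 0.35 between them, against 0.01 between a member and another gene. These points share arrays, extraction and normalization, and the values are given as a description. The closest pairs were Snora33 and Snora34 (0.96) and Snord47 and Snord73b (0.93), each from different hosts, with Snord49a and Snord49b (0.92), of 1 host, among the next. Scarna13 hardly took part, with a median correlation of 0.09 with the other members. The same held for Snord95 (0.005), Snora36b (0.07) and Snora19 (0.11), whereas Snora7a had 0.56 and Snord47 0.55.

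On single arrays the shared shift was as large as the class differences. Against the control mean the median member lay at -0.03, -0.19, 0.06 and 0.17 on the 4 control arrays, at 0.24, -0.01, 0.13 and -0.06 with PA, and at 0.06, -0.01, -0.14 and 0.05 with PMA. With SA it lay at -0.26, -0.08, -0.06 and -0.12 and with OA at -0.15, -0.23 and -0.04. All 7 arrays of SA and OA were below 0, but control replicate 2 and PMA replicate 3 were lower than several of them. On control replicate 2, 10.2% of members were above their control mean, and on control replicate 4, 88.1%. The median of all genes stayed between -0.01 and 0.13 on the same scale. No RNA quality value per array was used here beyond the labelled integrity number above 9, and what set these shifts was not tested.

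**Figure D4:**
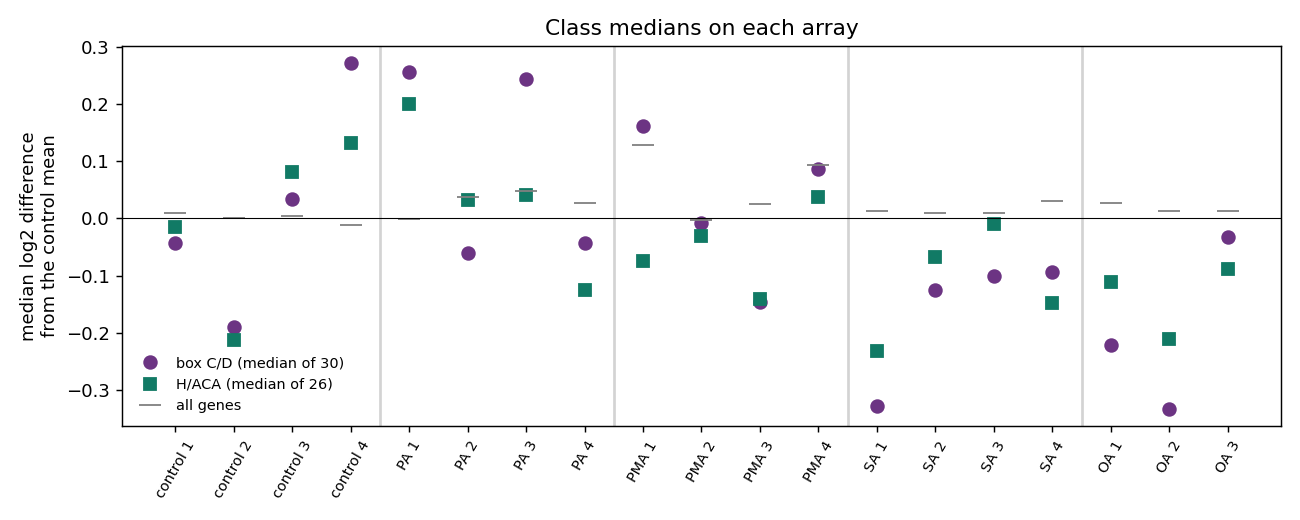
Median log2 difference from the control mean on each of the 19 arrays for the 30 box C/D RNAs (circles), the 26 H/ACA RNAs (squares) and all 18820 genes (dashes). The control arrays alone run from -0.19 to 0.27 for box C/D, and the SA and OA arrays all lie below 0 for both classes.

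By RefSeq spans 58 of the 59 members lay inside another gene, all but Snord118, without regard to strand. For 36 of them the host was measured, as 31 host genes. Host genes spread less, with a median within-group SD of 0.0791 against 0.207 for the small RNAs of these pairs, and the median correlation of a pair within groups was 0.20 over the 19 arrays. Of the 31 hosts, 1 passed, Rps12 with OA (-0.31, adjusted p = 0.0224), whose Snora33 differed by -0.17 ± 0.17 (0.798). In that comparison 0.861% of all genes passed.

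The members' differences were often without a match in the host. Across the 36 pairs the correlation of the differences was 0.19 with PA, 0.12 with PMA, 0.14 with SA and 0.29 with OA against control, 0.46 in PA against PMA, 0.26 in SA against OA, 0.51 in PA against SA and 0.46 in PMA against OA. Pairs that share a host are not independent, and these values are descriptions. In PA against SA, Snord53 differed by 0.93 and Wdr43 by 0.04, and Snora62 by 0.39 and Rpsa by 0.05. In the same comparison Snord15b differed by 0.54 and Snord15a by 0.42 beside 0.29 for their host Rps3, Snord33 by 0.74 beside 0.19 for Rpl13a, and Snord47 by 0.56 beside 0.28 for Gas5, a non-coding host. With OA against control, Snora70 stood at 0.48 and Rpl10 at -0.03, Snora69 at -0.55 and Rpl39 at -0.02, and Snord57 at -0.43 and Nop56 at -0.06. None of these hosts passed.

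**Figure D5:**
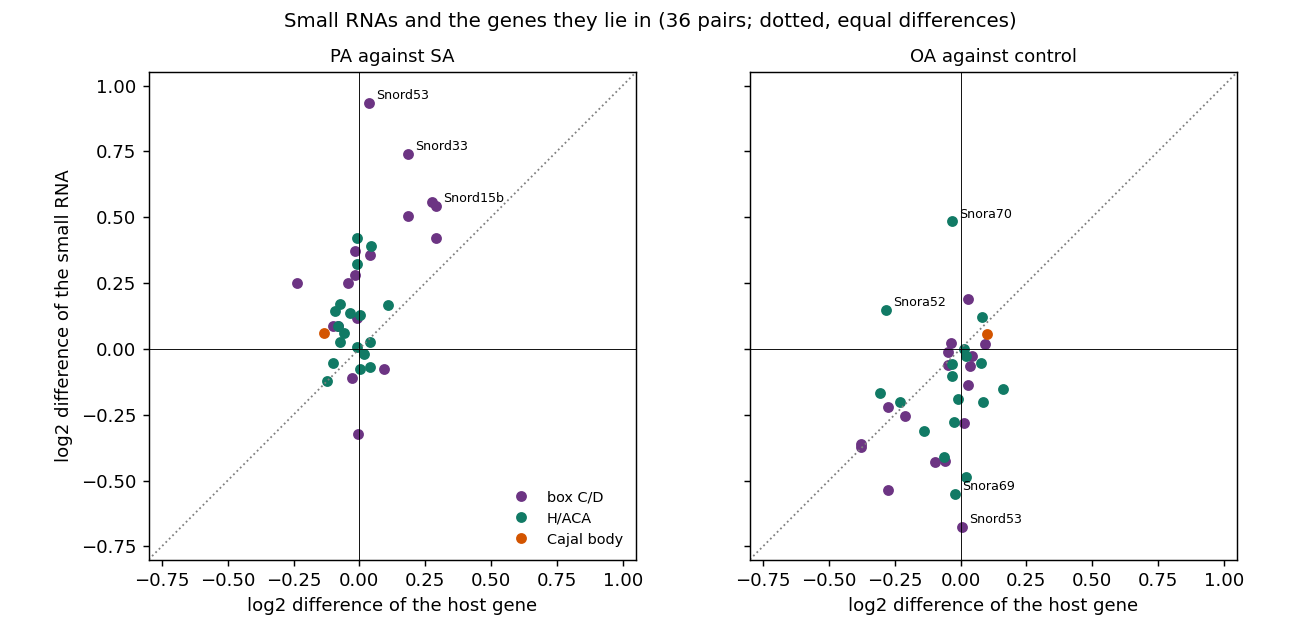
Log2 difference of a small RNA (vertical) against that of the gene it lies in (horizontal) for 36 pairs, in PA against SA (left) and OA against control (right), coloured by class; the dotted line marks equal differences. The hosts stay within -0.38 to 0.29 in both panels, and Snord53 reaches 0.93 on the left and -0.68 on the right with Wdr43 near 0.

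Genes for the proteins that build and trim these particles were measured as well. Of the box C/D core proteins (fibrillarin, Nop56 and their partners) 4 of 5 listed were measured, of the assembly factors 11 of 13, of the Cajal body proteins 15 of 15 and of the exosome and trimming enzymes 13 of 16, and none passed in any of the 8 comparisons. Of the 4 H/ACA core proteins 1 passed, Gar1 with PMA, 0.29 ± 0.06 above control (adjusted p = 0.0499). With PMA 0.266% of all genes passed, and 0 of these 4 passed the F test. Of 64 listed host genes 47 were measured, and Rps12 with OA was the only one that passed in a comparison (0.861% of all genes passed with OA). The median of every one of these lists with OA lay between -0.08 and 0.03, beside -0.24 for box C/D RNAs. Adipocyte markers stood at means of 8.09 to 12.5, among them Adipoq, Fabp4 and Lpl, and none passed against control, with a smallest adjusted p of 0.0502 with OA, while 2 of 9, Lep and Plin1, passed the F test (adjusted p = 0.0173 and 0.0495). Markers of preadipocytes and fibroblasts stood at 9.54 to 11.5, and 1 of 5, Col1a1, passed with PMA (adjusted p = 0.0463) and 1 of 5, Dlk1, passed the F test (0.0475). Macrophage markers stood at 3.54 to 6.32, with none past the threshold against control and 1 of 5, Cd68, past the F test (adjusted p = 0.0154). Of all genes 1.47% passed the F test. The part of these cells in the values above was not tested.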

How the data were processed

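The 19 arrays (Affymetrix Mouse Gene 1.1 ST, 100 ng of total RNA each) were used as log2 RMA values per probe set, normalized by the authors with R 2.15.0 and affy 1.34.0, per the submitters' processing notes. The number of arrays limits the precision. Of 35556 probe sets, 21218 had 1 gene symbol in the platform annotation, 1881 several and 12457 none. For each of 18820 genes the brightest single-symbol probe set by mean was kept, with no filter on low values.

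A mean for each group was estimated from the 19 arrays together by the linear models of limma (version 3.58.1, under R 4.3.3), with variances moderated by eBayes. P-values were two-sided and adjusted by Benjamini-Hochberg within a comparison, with a threshold of 0.05. Errors are standard errors of the model, or SD where said, and intervals are 95% intervals. The fit was tested on simulated data in which genes varied independently, unlike the members here. In each run about 200 genes were changed in 1 acid group, all 59 members among them. Against control a change of 0.5 was found for 40.7% to 47.5% of the members, and a change of 1 for 93.2% to 96.6%. The adjustment is looser where more genes change. In the data 0 genes passed with PA, 50 with PMA, 31 with SA and 162 with OA. The simulated shares therefore need not hold for the tests above. Samples of different groups share only a replicate number, which was used as a block in an alternative. Host genes were paired by RefSeq span (GRCm38.p6). The build of the probe sets is not given in the sources used here.

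The members and lists were chosen with earlier results of these data known. Named by rule were members past a threshold, the 3 largest rises and falls with each acid, the 3 smallest F test p of each class, the 3 widest and 3 narrowest spreads and every Scarna RNA. Other members are neighbours in a host or extremes of a comparison, chosen after their values were seen.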

Additional observations from a re-analysis of the deposited data

Results flagged for a closer look

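Of 88 groups of 4 arrays examined for the 22 members named by rule, 4 held an array set apart from the other three by most of the range of the group (the Dixon criterion at the 95% level, which chance meets in about 1 in 20 groups). Scarna13 read 8.33 on PMA replicate 2 against 7.78 to 7.85 on the other PMA arrays. Scarna8 read 4.21 on PA replicate 4 against 3.95 to 3.99 on the others with PA. Snora44 was low on control replicate 2, at 10.70 against 10.81 to 10.83. Snord22 was high on PA replicate 1, at 6.41 against 5.79 to 5.83, and without that array its PA difference from control was -0.45 with adjusted p = 0.0305. Without that array 510 of all genes (2.71%) passed with PA, against 0 with every array. Leaving out other single arrays took the Snord22 difference to -0.21 (without control replicate 4) and its adjusted p to 0.602 (without PA replicate 2). The causes were not tested.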

How the results depend on the processing

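Counts of members past the threshold moved with the processing and with single arrays, and no result changed sign among those that passed. In OA against control 1 member passed, 2 after cyclic loess, 0 with a trended robust spread (Scarna13, adjusted p = 0.0509), 9 with array weights, 3 without PA replicates 2 and 4, and 2 with only the arrays compared. In PMA against control 0 passed, and 1 (Scarna13) did with the dimmest 1 in 3 genes left out, with array weights or with only the arrays compared. In SA against control 0 passed, against 1 (Snord57) after cyclic loess, without PA replicates 2 and 4 or with only the arrays compared, and 3 with array weights. In PA against PMA 1 passed, 2 with the dimmest 1 in 3 genes left out, and 0 without PMA replicates 1 and 4 or with only the arrays compared. In PA against SA 0 passed, and 1 (Snora62) with the dimmest 1 in 3 genes left out, with a trended robust spread or without PMA replicates 1 and 4. For the F test 3 passed, 6 with the dimmest 1 in 3 genes left out, 1 with every probe set, 5 after cyclic loess, 5 with a trended robust spread, 9 with array weights and 1 without PMA replicates 1 and 4. The calls among all genes moved too. With OA 162 genes passed, 284 after cyclic loess, 337 with a trended robust spread, 1188 with array weights, 264 without PA replicates 2 and 4, and 102 with only the arrays compared. With PMA 50 passed, 199 with the dimmest 1 in 3 left out, 315 with array weights and 21 with only the arrays compared. With SA 31 passed, 86 after loess, 64 without PA replicates 2 and 4, 31 with only the arrays compared and 228 with array weights. In PA against PMA 181 passed, 430 with the dimmest 1 in 3 left out, 30 without PMA replicates 1 and 4 and 22 with only the arrays compared. In PA against SA 27 passed, and 41, 63 and 22 in the 3 settings above. For the F test 276 passed, and 438, 312, 406, 647, 905 and 129 in the order above.

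With the replicate number as a block, 0 members passed in PA against PMA (Snora73a, adjusted p = 0.0545) and 1 for the F test, and no other count of members changed. Over 36 pairs of arrays with the same number the deviations correlated at -0.43 to 0.40 (median 0.01), and 5 of 19 arrays correlated best with their own number. The block took the calls among all genes from 50 to 16 with PMA, 31 to 23 with SA, 162 to 72 with OA and 181 to 129 in PA against PMA. For the F test it took them from 276 to 170.

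Leaving out single arrays gave 0 to 4 members with OA, 0 to 4 with PA (4 without PA replicate 1, where 510 of all genes passed, against 0 with every array), 0 to 1 with PMA, 0 to 1 with SA, 0 to 2 in PA against PMA, 0 to 4 in PA against SA (4 without control replicate 2) and 0 to 9 for the F test (9 without control replicate 2). Without control replicate 2, which also gave the 4 members with OA, 105 of all genes passed with OA, 34 in PA against SA and 241 for the F test. With every array 162, 27 and 276 did. Over the 19 cases the calls among all genes ran from 8 to 129 with PMA and from 4 to 59 with SA. In PA against PMA they ran from 49 to 638. With every array these 3 counts were 50, 31 and 181. SA against OA and PMA against OA stayed at 0 members in all 19 cases. The F test call of Scarna13 was lost in 14 of 19 cases.

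Without PA replicates 2 and 4 the class medians in PA against PMA were 0.28 for box C/D and 0.19 for H/ACA RNAs, and in PA against SA 0.50 and 0.27. With the dimmest 1 in 3 genes left out Scarna8 dropped away, and the Cajal body medians against control were 0.41 with PA, 0.43 with PMA, 0.34 with SA and 0.54 with OA, and -0.019 in PA against PMA. Except where a setting tests fewer genes or arrays, the cause was not tested. PA replicates 2 and 4 and PMA replicates 1 and 4 were left out, as pairs, by a choice made after seeing the data.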

Other observations

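A further 13 probe sets listed several symbols with a small nucleolar or Cajal body RNA among them, and were tested apart with all 23099 annotated probe sets. With limma none of the 13 passed in any of the 8 comparisons, and the smallest adjusted p was 0.132, in OA against control. Their medians against control were 0.05 with PA, -0.01 with PMA, -0.15 with SA and -0.18 with OA.

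Of the 59 small RNAs, 8 had a second probe set of the same symbol. For Scarna17, Snora19, Snora30, Snora5c and Snord118 both probe sets held the same mean and correlated at 1.00 within groups over the 19 arrays, so the pair is a single measurement. For Snora3 and Snord58b the correlation was 1.00 to 2 decimals, and for Snora21 it was 0.96. A probe set of these RNAs cannot be tied to a single copy of the gene.

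The spread of the small RNAs differed by group. The median SD of box C/D RNAs was 0.211 in control cells, 0.234 with PA, 0.156 with PMA, 0.207 with SA and 0.154 with OA, beside 0.0750, 0.106, 0.0897, 0.0791 and 0.0726 for all genes.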
